A study of Mus musculus with 8 samples.

Results

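Collagens are the main structural proteins of the extracellular matrix, and the genes that encode their chains are described here in mouse liver after knockdown of Eif4ebp3. Members were all genes of the authors' comparison table whose symbol is Col, a type number, the letter a and a chain number, which gave 44 of the 55536 genes with an identifier. They were divided by the fibre or sheet they build into 11 fibrillar, 8 basement membrane and 25 other collagens. The rule and the classes use names and not measured values.

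Each collagen molecule is a rope-like helix wound from chains that may be identical or come from different genes. Fibrillar collagens such as types I, III and V are cut at their ends outside the cell and line up into banded fibres, while type IV forms the sheet of basement membranes and type VI forms beaded filaments. In liver, fibrillar collagen is sparse in the healthy lobule and accumulates in scar tissue, where hepatic stellate cells and portal fibroblasts are its main producers. Hepatocytes are an abundant source of the chain of type XVIII, a basement membrane collagen whose end fragment is endostatin.

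The livers came from C57BL/6 mice, lean and wild type, that were 2 months old and lived on 12 h of light and 12 h of dark with free feeding until an overnight fast that preceded collection. All mice, controls included, had received 0.1 OD of an adenovirus carrying a short hairpin RNA 1 week earlier. In the control group (n = 4) the hairpin was directed at lacZ, a bacterial gene that mice lack, and in the knockdown group (n = 4) at Eif4ebp3, whose product holds eIF4E, the factor that recognises the mRNA cap, and so damps translation. The labels give neither the sex of the mice nor a group without virus, so the values show the difference between hairpins in virus-treated liver. The labels mark the samples as separate but do not say more, and p-values therefore measure the spread between these samples.

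RNA depleted of ribosomal RNA was measured as estimated counts per gene, with totals of 24189202 to 32073994 counts in a sample. Levels are given as normalised CPM, which are counts relative to the sample's total after scaling by TMM, a method that sets the bulk of genes to no change. Eif4ebp3 stood at 289, 215, 204 and 49.3 CPM in the controls, listed by replicate number as all values below, and at 9.62, 13.9, 37.2 and 19.5 CPM after knockdown, so every knockdown sample was below every control sample, with control replicate 4 nearest to them. Of the 15375 genes that passed the filter on low counts, 57.2% had an adjusted p under 0.05 (edgeR quasi-likelihood test, Benjamini-Hochberg), 29.5% higher and 27.8% lower in knockdown, and the words rose and fell below mean this threshold. Scaling by total counts alone, which does not set the bulk of genes to no change, moved the median of all genes from 0.00 to 0.56 on the log2 scale, and 71.6% of genes were then called, 63.9% higher and 7.73% lower. The 12 hepatocyte markers measured, such as Alb and Cps1, were detected in all samples.

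The fibrillar chains Col1a1, Col1a2, Col3a1, Col5a1 and Col5a2 rose, Col4a1, Col4a2 and the main chains of type VI rose as well, and the most abundant collagen transcript of control liver, Col18a1, fell. Among the 26 collagens that passed the filter, 15 rose, 5 fell and 6 did not pass the threshold, with a median log2 fold change of 1.23 against 0.00 over all genes tested. The groups did not overlap for 18 of the 26, with 14 higher and 4 lower in knockdown, where 52.1% of all genes tested had groups that did not overlap (27.4% higher, 24.7% lower). A change of at least 2-fold was called for 17 of the 26, 14 higher and 3 lower, and for 22.5% of all genes tested, 15.4% higher and 7.04% lower. With scaling by total counts 18 of the 26 collagens were higher and 3 were lower, where 63.9% of all genes tested were higher and 7.73% lower. The median of the collagens was then 1.81 against 0.56 over all genes tested, and the collagens that stayed lower were Col18a1, Col27a1 and Col4a4. The filter keeps a gene that is high in either group, so counts over members that passed it describe those members and not the whole family.

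**Figure D1:**
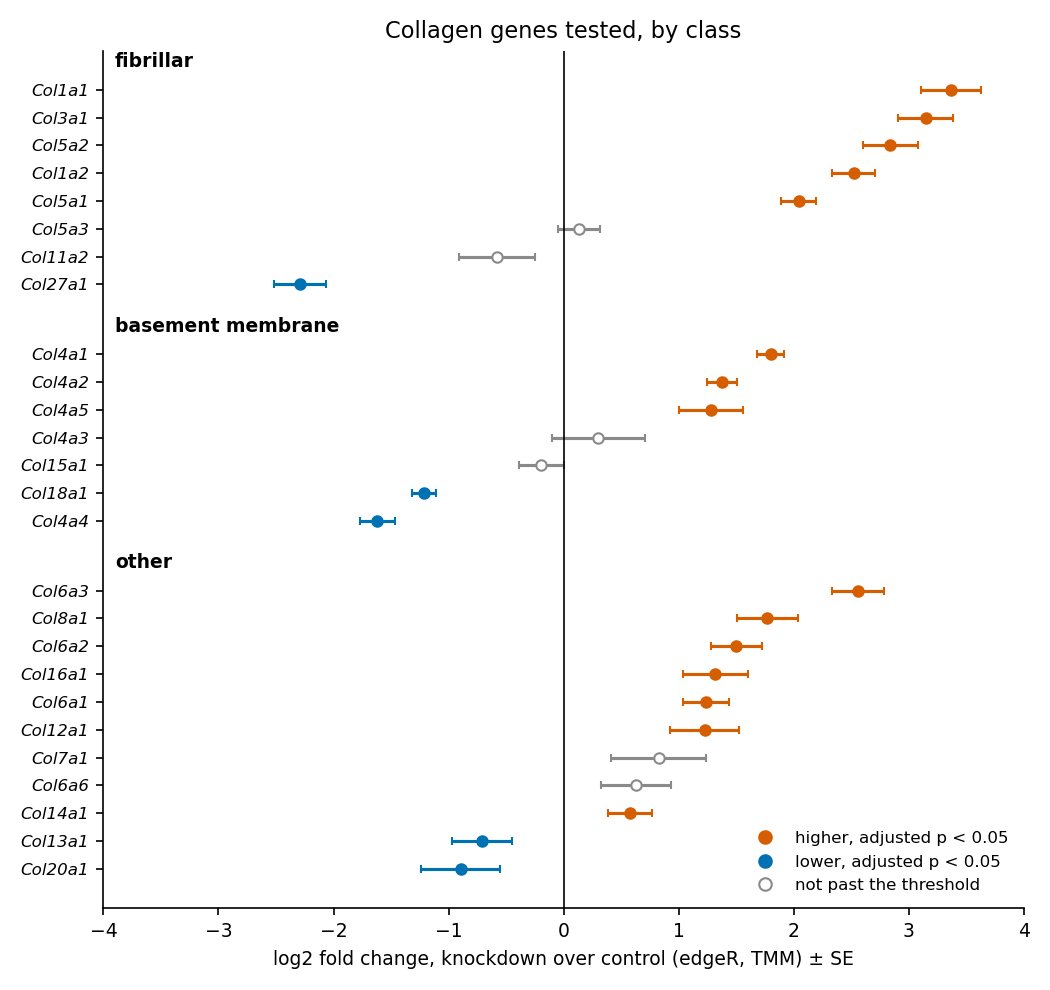
Log2 fold change of knockdown over control (x axis, edgeR with TMM scaling) for the 26 collagen genes tested, by class, with bars for the standard error. Fibrillar collagens lie from -2.29 (Col27a1) to 3.36 (Col1a1), basement membrane collagens from -1.62 (Col4a4) to 1.80 (Col4a1) and other collagens from -0.89 (Col20a1) to 2.56 (Col6a3). Filled points have an adjusted p under 0.05.

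The bases just upstream of the transcription start are shown for 4 of the collagens with large changes, 3 that rose (Col3a1, Col5a1 and Col6a3) and 1 that fell (Col27a1), because promoters are where genes that move together could share sequence. They are the 120 bases before the start in the RefSeq annotation of GRCm38.p6, 5′ to 3′ on the strand of the gene, at chr1:45311418-45311537 (plus strand) for Col3a1, chr2:27886305-27886424 (plus) for Col5a1, chr1:90843972-90844091 (minus) for Col6a3 and chr4:63215292-63215411 (plus) for Col27a1. Capitals mark matches to TATAAA or GGGCGG.
Col3a1: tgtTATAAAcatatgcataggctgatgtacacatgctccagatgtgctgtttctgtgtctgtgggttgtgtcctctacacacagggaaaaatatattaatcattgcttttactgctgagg
Col5a1: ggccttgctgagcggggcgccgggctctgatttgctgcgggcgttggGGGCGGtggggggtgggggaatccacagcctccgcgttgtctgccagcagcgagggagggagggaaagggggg
Col6a3: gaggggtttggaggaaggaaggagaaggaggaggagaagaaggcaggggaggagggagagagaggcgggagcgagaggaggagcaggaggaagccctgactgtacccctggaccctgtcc
Col27a1: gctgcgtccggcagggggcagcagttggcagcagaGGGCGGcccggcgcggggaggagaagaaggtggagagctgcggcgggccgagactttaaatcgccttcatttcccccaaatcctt
The match in Col3a1 is TATAAA, which begins 117 bases before the start, and those in Col5a1 and Col27a1 are GGGCGG, which begin 73 and 85 bases before it. Col6a3 has no match in this stretch, which is made largely of runs of g and a. None of the 4 stretches holds an annotated exon. The stretch of Col27a1 lies inside the gene as placed by GENCODE, the annotation used for gene positions (63214004 to 63334991). The start of this gene therefore differs between the annotations, and the bases shown are upstream only of the RefSeq start.

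Promoters of 35 of the 44 members were in the table used, and those of Col12a1, Col14a1, Col1a1, Col22a1, Col26a1, Col2a1, Col4a3, Col5a2 and Col9a3 were not. In the 250 bases before the start, on both strands, GGGCGG (the core of the GC box bound by Sp1) occurred in 7 of the 11 promoters of collagens that rose and in 2 of the 5 of those that fell, against 32.7% of all 32851 start sites. Over the whole family it occurred in 21 of the 35 promoters, or in 57.9% of their 38 start sites, whether or not the gene changed. CCAAT was present in 5 of the 11 and 1 of the 5, against 33.8% of all start sites, and TATAAA in 1 of the 11 and 1 of the 5, against 12.4%. These motifs do not overlap in their letters, and a match is a description of the sequence, not a bound site.

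Of the 11 fibrillar collagens 8 were tested, 5 rose, 1 fell and 2 did not pass the threshold, with a median log2 fold change of 2.28. The chains of types I and III are the bulk collagens of scar and of loose connective tissue. Col1a1, on chromosome 11 (94936224 to 94953042, mm10), stood at 9.50, 8.31, 17.7 and 14.3 CPM in control and at 181, 124, 108 and 99.4 CPM in knockdown samples. Every knockdown sample lay far above the highest control sample. The log2 fold change was 3.36 ± 0.26 (SE, adjusted p = 2.43e-06), from 12.5 ± 4.35 to 128 ± 36.4 CPM (SD, n = 4 each).

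Col3a1, the only chain of type III, is on chromosome 1 (45311538 to 45349706) and stood at 21, 20.7, 36.5 and 33.0 CPM in control and 347, 238, 190 and 208 CPM in knockdown samples. It rose by 3.15 ± 0.24 on the log2 scale (edgeR, adjusted p = 2.31e-06). Col1a2, the second chain of type I, on chromosome 6 (4504814 to 4541544), stood at 18.3, 16.2, 24.6 and 21.8 CPM in control and 161, 114, 95.0 and 95.1 CPM in knockdown samples. It rose by 2.52 ± 0.19 (edgeR, adjusted p = 2.1e-06). For all 3 genes knockdown replicate 1 was the highest sample and control replicate 3 the highest control, and no control sample reached a knockdown sample. In bulk tissue, more cells that express a gene and more RNA per cell cannot be told apart.

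Type V collagen sits inside type I fibres and limits their width. Col5a1, on chromosome 2 (27886425 to 28039514), stood at 8.64, 9.20, 10.5 and 8.31 CPM in control and 48.5, 39.1, 31.2 and 32.3 CPM in knockdown samples, and rose by 2.04 ± 0.15 (edgeR, adjusted p = 1.77e-06). Col5a2, on chromosome 1 (45374321 to 45503282), stood at 3.55, 2.43, 5.35 and 5.02 CPM in control and 38.8, 28.9, 22.1 and 27.0 CPM in knockdown samples, and rose by 2.84 ± 0.24 (edgeR, adjusted p = 4.26e-06). The groups lay far apart for both chains, and knockdown replicate 1 was again the highest sample. Col5a2 lies next to Col3a1, tail to tail with 24614 bases between them.

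Col5a3, the third chain of type V, did not pass the threshold. It stood at 32.9, 39.2, 35.3 and 63.2 CPM in control and 47.0, 41.5, 50.8 and 48.2 CPM in knockdown samples, with a log2 fold change of 0.14 ± 0.18 (edgeR, adjusted p = 0.544). Control replicate 4 was the highest of all samples and the groups overlapped. Without control replicate 4 the fold change was 0.38 (adjusted p = 0.00482), among the samples coded C alone, which leave out the same sample, it was 0.37 (adjusted p = 0.0119), and with scaling by total counts it was 0.68 (adjusted p = 0.0135), so this gene's call depends on 1 library and on scaling.

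Col27a1, a fibrillar collagen known from cartilage, fell. On chromosome 4 (63214004 to 63334991), it stood at 30.5, 32.1, 29.9 and 57.2 CPM in control and 9.21, 7.03, 5.70 and 8.59 CPM in knockdown samples. Control replicate 4 was far above the other controls, and every control sample was above every knockdown sample. The log2 fold change was -2.29 ± 0.23 (edgeR, adjusted p = 1.31e-05), and with scaling by total counts it was -1.74. Col11a2, a chain of the cartilage collagen type XI, stood at 4.94, 3.50, 2.42 and 1.96 CPM in control and 2.14, 1.92, 3.23 and 1.36 CPM in knockdown samples, which overlapped (log2 fold change -0.58 ± 0.33, adjusted p = 0.157). The fibrillar genes below the filter were Col2a1 (1 count summed over the controls and 2 over the knockdown samples), Col11a1 (9 and 24) and Col24a1 (27 and 19).

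**Figure D2:**
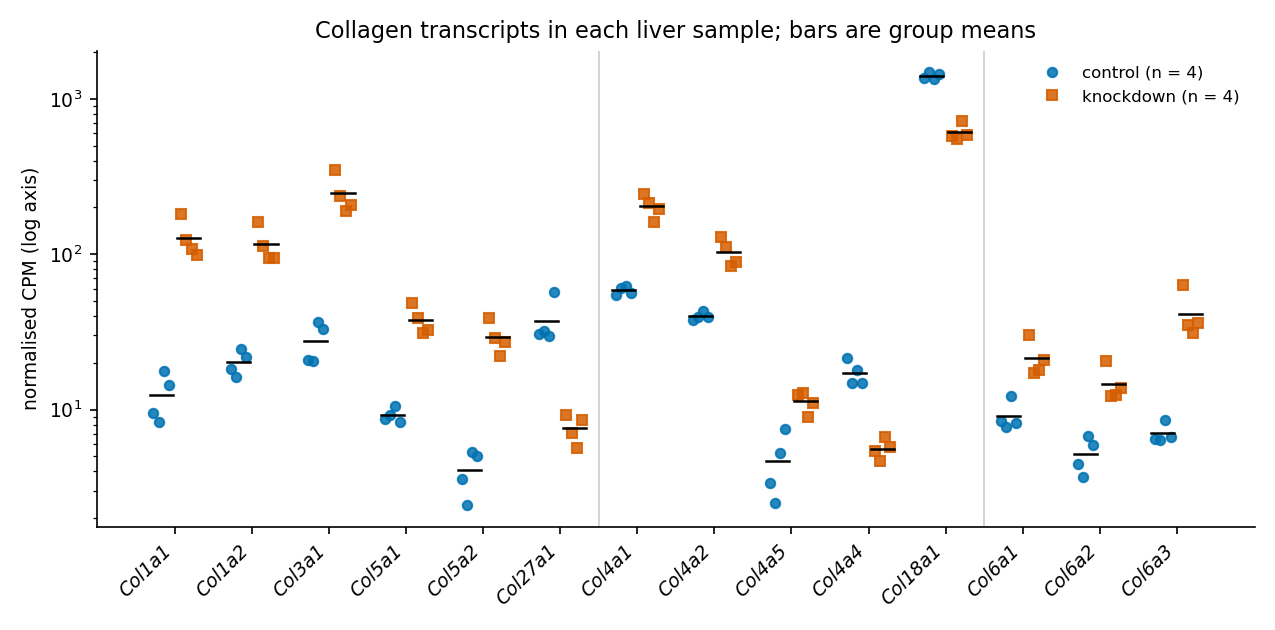
Normalised CPM (log axis) of 14 collagen genes in each of the 4 control (circles) and 4 knockdown (squares) livers, replicates 1 to 4 from left to right within a group, with bars for the group means; grey lines separate fibrillar, basement membrane and other collagens. Col1a1 moves from 8.31 to 17.7 CPM in control to 99.4 to 181 CPM in knockdown, while Col18a1, Col4a4 and Col27a1 move down.

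Of the 8 basement membrane collagens 7 were tested, 3 rose, 2 fell and 2 did not pass the threshold, with a median of 0.30. Type IV is the sheet of all basement membranes, and its ubiquitous chains are Col4a1 and Col4a2. They lie head to head on chromosome 8, Col4a1 at 11198423 to 11312826 and Col4a2 at 11312805 to 11449287, with annotated ends that overlap by 22 bases. Col4a1 stood at 54.9, 60.4, 62.4 and 56.6 CPM in control and 245, 213, 161 and 196 CPM in knockdown samples, and rose by 1.80 ± 0.12 (edgeR, adjusted p = 1.05e-06), the smallest adjusted p among the collagens. Col4a2 stood at 37.8, 39.3, 43.1 and 39.2 CPM in control and 130, 111, 84.0 and 89.3 CPM in knockdown samples, and rose by 1.38 ± 0.13 (adjusted p = 8.79e-06). The control samples were close together for both genes, with an SD of 5.85% and 5.72% of the mean.

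The chains Col4a3, Col4a4 and Col4a5 form the type IV network of the kidney filter and other specialised membranes. Col4a5 rose by 1.28 ± 0.28 (edgeR, adjusted p = 0.00249), from 3.36, 2.52, 5.30 and 7.49 CPM in control to 12.5, 12.8, 8.97 and 11.1 CPM in knockdown samples. Col4a4 moved the other way, from 21.4, 14.8, 17.9 and 14.9 CPM to 5.42, 4.65, 6.67 and 5.72 CPM, and fell by 1.62 ± 0.15 on the log2 scale (adjusted p = 9.08e-06). The groups did not overlap for either gene. The estimated counts of Col4a4 were not whole numbers in any of the 8 samples, so its level is less certain.

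Col4a3 starts 71 bases from Col4a4, head to head on chromosome 1. It stood at 0.360 to 0.639 CPM in control and 0.308 to 1.03 CPM in knockdown samples (log2 fold change 0.30 ± 0.40, adjusted p = 0.542). The difference between the 2 neighbours' fold changes was not tested. An annotated gene on the other strand shares 5.65% of the exon bases of Col4a3. Col4a6, next to Col4a5 on the X chromosome, was below the filter with 11 counts summed over the controls and 31 over the knockdown samples.

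Col18a1 was the collagen with the highest level in every sample. On chromosome 10 (77052178 to 77166548), it stood at 1369, 1480, 1343 and 1448 CPM in control and 574, 552, 716 and 588 CPM in knockdown samples. Both groups were tight and far apart, with means of 1410 ± 64.3 and 607 ± 73.9 CPM (SD, n = 4 each). It fell by 1.22 ± 0.10 on the log2 scale (edgeR, adjusted p = 4.06e-06), which is 2.32-fold, and with scaling by total counts the log2 fold change was -0.65 (adjusted p = 0.000106). Of the hepatocyte markers 11 of 12 fell as well, where 27.8% of all genes tested fell. With scaling by total counts 8 of the markers were lower, where 7.73% of all genes tested were. The summed level of the markers was 69987 to 95646 CPM in control and 53778 to 69521 CPM in knockdown samples. Their part in the fall of Col18a1 was not tested. Col15a1, the closest relative of Col18a1 among the collagens, stood at 9.74, 11.2, 16.9 and 13 CPM in control and 14, 10.8, 7.94 and 11.7 CPM in knockdown samples, which overlapped. Its log2 fold change was -0.19 ± 0.20 (adjusted p = 0.421), and it was 0.38 with scaling by total counts.

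Because Col18a1 outweighed the rest, the make-up of the collagen transcripts changed although, with TMM scaling, their sum differed by less than the spread between samples. Summed over the 44 genes the level was 1780 ± 67.7 CPM in control and 1718 ± 222 CPM in knockdown samples. That sum depends on scaling, since relative to total counts alone it was 1465 ± 140 and 2099 ± 336 CPM, 1.43 times higher in knockdown, whereas shares within the family do not. Without Col18a1 the sum was 370 ± 38 CPM in control and 1111 ± 254 CPM in knockdown samples, 3.01 times higher, and the ranges did not overlap (337 to 406 and 901 to 1473 CPM).

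Levels of different genes were compared per kilobase of transcript, with the gene lengths that the authors deposited. On this scale Col18a1 made up 81.9, 83.0, 78.8 and 79.9% of the collagen level in the controls and 29.6, 35.5, 46.2 and 39.4% in the knockdown samples. The fibrillar share went from 8.05 ± 1.6% to 35.8 ± 4.41%, within which types I and III went from 3.49 ± 0.93% to 29.6 ± 4.48%. Type IV went from 5.63 ± 0.37% to 16.8 ± 1.83% and the other collagens from 4.65 ± 0.61% to 8.98 ± 1.45%. None of these shares overlapped between groups, and knockdown replicate 3 was nearest to the controls in the shares of Col18a1, of the fibrillar collagens and of types I and III.

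**Figure D3:**
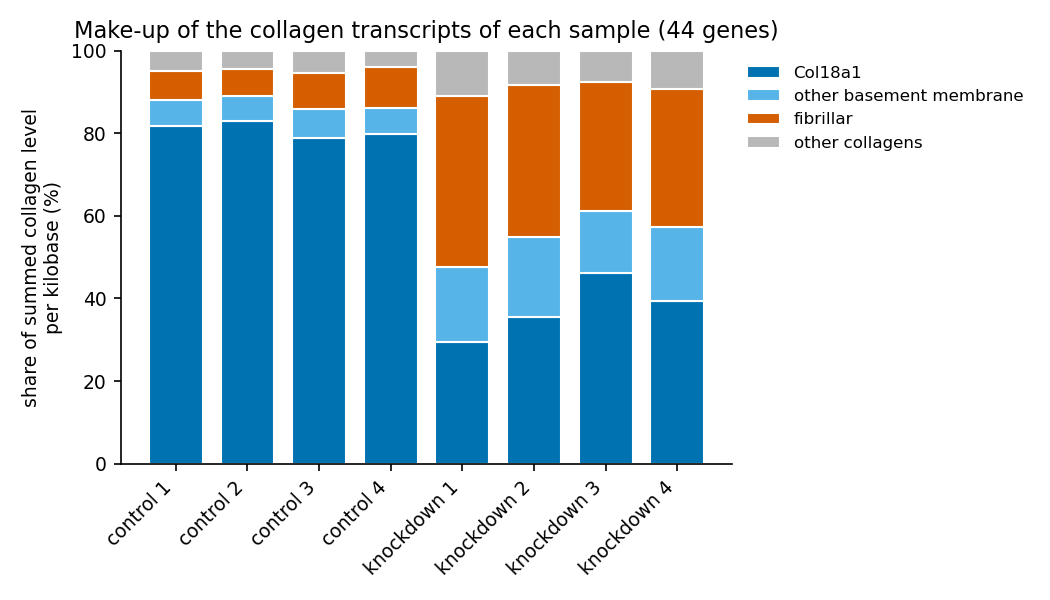
Share of the summed collagen level per kilobase (y axis, %) held by Col18a1, the other basement membrane collagens, the fibrillar collagens and the other collagens in each of the 8 livers. Col18a1 holds 78.8 to 83.0% in control and 29.6 to 46.2% in knockdown samples, and the fibrillar share is 6.58 to 10.02% in control and 31.4 to 41.5% in knockdown samples.

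The order of the levels changed as well. In control liver Col18a1 (252 ± 11.5 RPKM, here normalised CPM per kilobase) was followed by Col4a1 (8.85 ± 0.52), Col5a3 (6.97 ± 2.28), Col14a1 (6.20 ± 0.78), Col4a2 (6.18 ± 0.35), Col3a1 (4.99 ± 1.47) and Col27a1 (4.92 ± 1.74). After Col18a1 the SDs of neighbours in this order overlapped. Such overlap does not compare genes within the same sample, and the order of neighbours was not tested. In knockdown liver Col18a1 (109 ± 13.2 RPKM) was followed by Col3a1 (44.2 ± 12.6), Col4a1 (30.8 ± 5.27), Col1a2 (21.7 ± 5.81), Col1a1 (21.6 ± 6.14) and Col4a2 (16.0 ± 3.26), and the SDs of neighbours after Col18a1 again overlapped. Col1a1 moved from rank 12 to rank 5 of the 44 genes, and Col27a1 from rank 7 to rank 18. With annotated exon lengths these ranks were 10 and 4 for Col1a1 and 6 and 18 for Col27a1. The order given above also shifted with these lengths. In knockdown liver Col4a1 was then at rank 2, Col3a1 at 3, Col4a2 at 5 and Col1a2 at 6. In control liver Col4a2 was at rank 4, Col14a1 at 5 and Col3a1 at 7.

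Of the 25 other collagens 11 were tested, 7 rose, 2 fell and 2 did not pass the threshold, with a median of 1.23. Type VI builds beaded filaments around cells from the chains of Col6a1, Col6a2 and Col6a3, and all 3 rose. Col6a3, on chromosome 1 (90765923 to 90843971), stood at 6.43, 6.40, 8.59 and 6.71 CPM in control and 63.7, 35.1, 31.1 and 36.2 CPM in knockdown samples, and rose by 2.56 ± 0.23 (edgeR, adjusted p = 5.4e-06). Knockdown replicate 1 stood well above the other knockdown samples, and the groups did not overlap.

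Col6a2 stood at 4.46, 3.69, 6.74 and 5.89 CPM in control and 20.4, 12.2, 12.5 and 13.7 CPM in knockdown samples, and rose by 1.5 ± 0.22 (edgeR, adjusted p = 0.000169). Col6a1 stood at 8.40, 7.75, 12.2 and 8.26 CPM in control and 30.1, 17.1, 18.1 and 20.9 CPM in knockdown samples, and rose by 1.24 ± 0.20 (edgeR, adjusted p = 0.000365). Both genes lie on chromosome 10 in the same orientation, 85161 bases apart. Col6a6 stood at 0.420 to 0.874 CPM in control and 0.813 to 1.39 CPM in knockdown samples and did not pass the threshold (0.63 ± 0.31, adjusted p = 0.103), though it did with scaling by total counts. Col6a4 and Col6a5 were below the filter.

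Col8a1, a short-chain collagen of vessel walls that forms hexagonal nets, rose by 1.77 ± 0.27 (edgeR, adjusted p = 0.000227), from 0.288, 0.514, 0.566 and 0.548 CPM in control to 1.67, 1.77, 1.31 and 1.82 CPM in knockdown samples. Col12a1, Col14a1 and Col16a1 encode collagens that attach to the surface of fibres. Col16a1 rose by 1.32 ± 0.28 (adjusted p = 0.00223), from 2.30, 2.15, 3.91 and 1.64 CPM in control to 8.89, 6.13, 4.74 and 5.10 CPM in knockdown samples. Col12a1 rose by 1.23 ± 0.30 (adjusted p = 0.00487), from 4.27, 1.21, 2.47 and 2.69 CPM to 7.60, 5.90, 4.84 and 6.56 CPM. The groups did not overlap for these 3 genes.

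Col14a1, the most abundant of the fibre-associated collagens per kilobase, stood at 39.7, 42.4, 44.8 and 33.1 CPM in control and 88.4, 56.7, 44.1 and 49.5 CPM in knockdown samples. It rose by 0.58 ± 0.19 (edgeR, adjusted p = 0.0253), with groups that overlapped, since control replicate 3 lay above knockdown replicate 3. Without knockdown replicate 1 the fold change was 0.32 (adjusted p = 0.0519), and the call was also lost without control replicate 1 (0.57, adjusted p = 0.0519) or control replicate 4 (0.49, adjusted p = 0.0574).

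The falls among these collagens were small and uncertain. Col13a1, a collagen that spans the cell membrane, stood at 9.45, 8.03, 6.02 and 6.48 CPM in control and 5.52, 3.57, 2.68 and 6.48 CPM in knockdown samples (-0.71 ± 0.26, edgeR, adjusted p = 0.0388), with overlapping groups. The call was lost with scaling by total counts (-0.13, adjusted p = 0.687), with upper-quartile scaling (-0.63, adjusted p = 0.0655), and on leaving out control replicate 1, control replicate 2, knockdown replicate 2 or knockdown replicate 3 (adjusted p of 0.0768 to 0.107). Col20a1, at 1.73, 0.981, 0.823 and 0.776 CPM in control and 0.441, 0.407, 0.687 and 0.769 CPM in knockdown samples, had an adjusted p of 0.0444 (-0.89 ± 0.34), and its call was lost in 10 of 17 alternatives, among them scaling by total counts (-0.32, adjusted p = 0.391) and leaving out control replicate 1 (-0.57, adjusted p = 0.172). Col7a1, the collagen of anchoring fibrils in skin, stood at 0.228 to 0.528 CPM in control and 0.384 to 0.996 CPM in knockdown samples (0.83 ± 0.41, adjusted p = 0.109), and it passed the threshold with scaling by total counts.

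In all, 18 of the 44 members had too few counts to be tested, the highest with 68 counts over all 8 samples. Besides those named above they were Col8a2 (9 counts over the controls and 33 over the knockdown samples), Col9a1 (0 and 4), Col9a2 (28 and 12), Col9a3 (13 and 42), Col10a1 (2 and 1), Col17a1 (7 and 19), Col19a1 (0 and 0), Col22a1 (8 and 46), Col23a1 (17 and 39), Col25a1 (35 and 15), Col26a1 (1 and 1) and Col28a1 (1 and 2), with 30 and 38 counts for Col6a5 and 1 and 2 for Col6a4. The cartilage genes Col2a1, Col9a1 and Col10a1 thus had at most 4 counts in either group. In the edgeR fit without a filter 2 of these 18 passed the threshold, Col25a1 (log2 fold change -1.85 ± 0.60, adjusted p = 0.0205) and Col9a2 (-1.80 ± 0.60, adjusted p = 0.0256), both lower. As marked in the authors' deposited table, 19 members are significant, 14 higher and 5 lower, and the lower ones are Col18a1, Col27a1, Col4a4, Col9a2 and Col25a1. That mark is not the threshold used here, since Col13a1 and Col14a1 have adjusted p-values under 0.05 there and are not marked. All 26 members tested had the same sign there as in the fit used here.

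Ratios between collagen chains were compared next. Most pair chains that are built into the same molecule or fibre. Col18a1 over Col15a1 pairs related but separate collagens, and Col4a5 over Col4a1 pairs chains of different type IV networks. The ratios do not depend on scaling between samples and are given here per kilobase of deposited length. Col1a1 over Col1a2 was 0.467, 0.463, 0.648 and 0.592 in control and 1.01, 0.983, 1.03 and 0.943 in knockdown samples, and every knockdown sample was above every control sample. Which chain has the higher level depends on the length used: the mean ratio was 0.543 in control and 0.992 in knockdown samples with the deposited lengths, and 1.14 and 2.08 with annotated exon lengths. The relative change between groups does not depend on length. Type I collagen usually contains a larger number of chains from Col1a1 than from Col1a2. Col6a3 over Col6a1 was 0.311, 0.335, 0.285 and 0.329 in control and 0.858, 0.833, 0.697 and 0.703 in knockdown samples.

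Col4a1 over Col4a2 moved from 1.43 ± 0.0425 to 1.93 ± 0.141 (SD, n = 4 each, no overlap), and these genes start next to each other. Col5a1 over Col5a2 moved down from 1.94 ± 0.741 to 1.03 ± 0.0772, and Col5a1 over Col1a1 from 0.563 ± 0.18 to 0.211 ± 0.0183. In these 5 ratios the groups did not overlap, and each had an exact two-sided permutation p of 0.0286, the smallest that 4 against 4 samples allow. After adjustment over the 9 ratios tested the value was 0.0514 for each, so no ratio passed 0.05. With 5 ratios at the smallest p, no lower adjusted value was possible. The adjusted value therefore does not tell how far apart the groups lie.

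Of the other ratios, Col3a1 over Col1a1 was 2.41 ± 0.19 in control and 2.05 ± 0.15 in knockdown samples (exact permutation p = 0.0571, adjusted 0.0735). Col18a1 over Col15a1 was 107 ± 25.1 and 53.8 ± 20.2 (exact permutation p = 0.0571, adjusted 0.0735). Col6a1 over Col6a2 was 1.73 ± 0.281 and 1.41 ± 0.0491 (exact permutation p = 0.114, adjusted 0.129), and Col4a5 over Col4a1 was 0.0810 ± 0.0395 and 0.0565 ± 0.0040 (exact permutation p = 0.314, adjusted 0.314). The groups overlapped in all 4 of these.

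**Figure D4:**
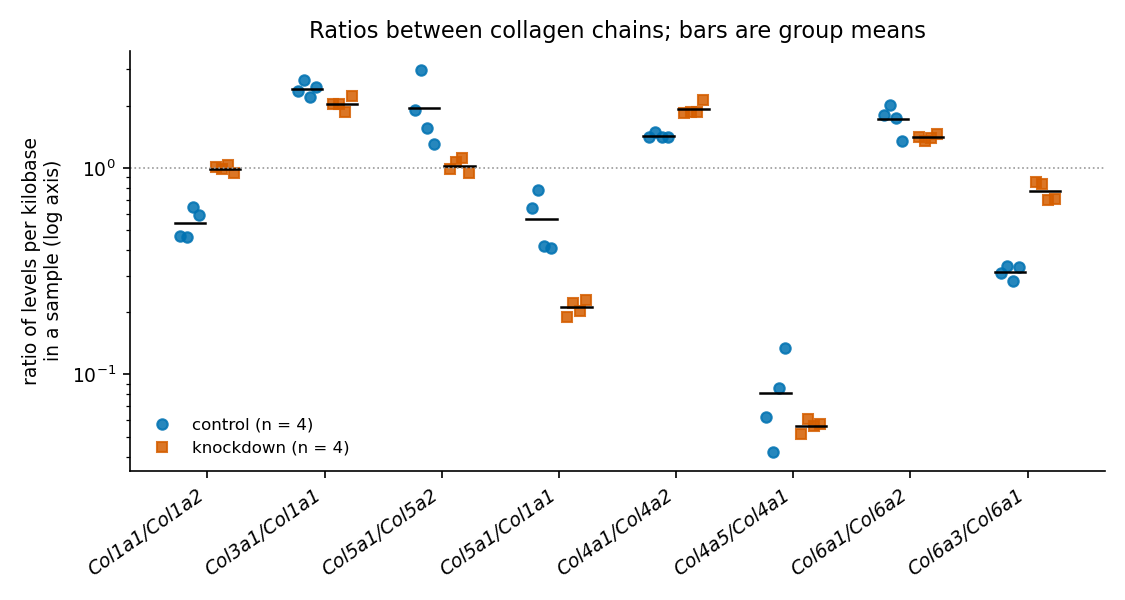
Ratio of the levels per kilobase of 2 collagen chains (y axis, log scale) in each control (circles) and knockdown (squares) liver for 8 of the 9 ratios tested, with bars for the group means and a dotted line at equal levels by deposited length. Col1a1 over Col1a2 moves from 0.463 to 0.648 in control to 0.943 to 1.03 in knockdown, and the groups do not overlap for Col5a1 over Col5a2, Col5a1 over Col1a1, Col4a1 over Col4a2 and Col6a3 over Col6a1.

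The samples of a group differed in the same order for many of the collagens that rose. Knockdown replicate 1 was the highest knockdown sample for 13 of the 15 and replicate 3 the lowest for 12 of them, where over all genes that rose these shares were 43.0% and 47.0%. Among the controls replicate 3 was the highest for 13 of the 15 and replicate 2 the lowest for 9, where the shares over all genes that rose were 18.5% and 24%. Control replicate 3 was also the highest control in the summed level of 6 mesothelial markers (4.89 CPM, against 0.456 to 0.981 CPM in the other controls), in Msln (1.80 against 0 to 0.192 CPM) and in Pi16, a fibroblast marker (1.59 against 0.187 to 0.319 CPM). Msln and Pi16 belong to a list of 12 markers of myofibroblasts and portal fibroblasts. Other genes of that list, such as Acta2 (4.56 CPM) and Thy1 (3.38 CPM), were highest among the controls in replicate 4. The summed level of the list was 60.5 CPM in control replicate 3 and 59.5 CPM in control replicate 4. The part of these markers in the order of the samples was not tested. Leaving out knockdown replicate 1 lost the call of Col14a1 alone among the 15.

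Genes that make, bind and degrade collagen were taken from 9 lists of 116 genes in all. Of the 109 tested, 63 rose, 15 fell and 31 did not pass the threshold, with a median log2 fold change of 0.72. Over all genes tested 29.5% rose and 27.8% fell, and the counts of each list below are to be read beside these shares. With scaling by total counts 89 were higher and 4 lower, where 63.9% of all genes tested were higher and 7.73% lower. Of the 15 that fell only Bmp1, Ctsl, Lama3 and Lamb3 were still lower with that scaling.

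Folding and hydroxylation takes place in the endoplasmic reticulum, and of its 17 tested genes 9 rose and 2 fell (median 0.46). Serpinh1, the collagen chaperone HSP47, rose by 2.07 ± 0.13 from 6.47 to 27.2 CPM, Fkbp10, a prolyl isomerase for collagen, rose by 2.15, and Crtap, part of the prolyl 3-hydroxylation complex, by 1.23. Fkbp14, another prolyl isomerase, fell by 0.54 (with scaling by total counts the log2 fold change was +0.03, the other direction) and Colgalt2, a collagen galactosyltransferase, fell by 1.17. The abundant general folding enzymes P4hb (1250 and 1106 CPM in control and knockdown) and Ppib (190 and 175 CPM) did not pass the threshold.

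The genes that package procollagen for export went the other way. Of 7 tested 5 fell and 1 rose (median -0.41), among them Mia2 (-0.70), a cargo receptor at endoplasmic reticulum exit sites, Sec23a (-0.56), a coat protein of the vesicles that leave there, and Klhl12 (-0.53), an adaptor of the ubiquitin ligase that enlarges those coats. Creb3l1, a transcription factor that activates collagen genes, rose by 1.58. The direction of this list depends on scaling, since by total counts 3 of its genes were higher, none was lower and the median was 0.16.

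Outside the cell, 9 of the 15 tested genes of propeptide processing and fibril assembly rose and 2 fell (median 0.78). Sparc, a collagen-binding matrix protein, rose by 1.70 ± 0.13 from 49.1 to 159 CPM, Lum, a proteoglycan that coats fibres, by 1.59, and Pcolce, which enhances removal of the C-terminal propeptide, by 1.31. The protease that Pcolce enhances, Bmp1, fell from 254 to 110 CPM (log2 fold change -1.21), and Fn1, fibronectin, fell by 0.59.

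All 6 crosslinking genes rose (median 1.85), with groups of 142 to 216 and 596 to 776 CPM for their sum. Tgm2, a transglutaminase, rose by 1.9 ± 0.14 from 164 to 611 CPM, and the lysyl oxidases Loxl2 and Lox rose by 2.2 and 2.69. They remained higher with scaling by total counts.

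Of 10 collagen receptors tested 5 rose and 1 fell (median 0.36). Ddr1, a tyrosine kinase activated by collagen, rose by 2.98 ± 0.24 from 1.9 to 15 CPM, Mrc2, an uptake receptor for collagen, by 2.56, and Lair1, an inhibitory receptor on immune cells, by 1.55. Itga10, a collagen-binding integrin chain, fell by 0.59. The integrin chain Itgb1 (241 and 217 CPM) did not pass the threshold.

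Of 8 tested genes of collagen breakdown 6 rose and 1 fell (median 1.00). Mmp14, a membrane-bound collagenase, rose by 0.87 from 50.5 to 92.5 CPM, Mmp12, the macrophage metalloelastase, by 3.74, and Mmp2, a gelatinase, by 1.84, while the lysosomal protease Ctsl fell by 0.82. Of the 6 inhibitors of breakdown 4 rose and 1 fell (median 1.64). Timp1, an inhibitor of metalloproteinases, rose by 4.34 ± 0.59 from 0.140 to 2.99 CPM, its relative Timp4 rose by 2.72, and Reck, a membrane-bound inhibitor, fell by 0.77.

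Of 16 proteins that share the basement membrane with type IV collagen, 7 rose and 2 fell (median 0.48). Nid1, the linker of the laminin and collagen networks, rose by 3.19 ± 0.15 from 19.8 to 181 CPM, and the laminin chains Lama5 and Lamc1 rose by 1.89 and 1.29. Lama3 fell by 2.65 and Lamb3 by 1.28, both chains of the laminin of epithelial anchorage. Of 24 genes of profibrotic signalling tested 16 rose and 1 fell (median 0.78), among them Tgfb2 (3.24), Pdgfc (1.33) and Tgfb1 (1.08), which encode growth factors, while Smad4, a shared mediator of TGF-beta signalling, fell by 0.33 but was higher with scaling by total counts (0.24).

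**Figure D5:**
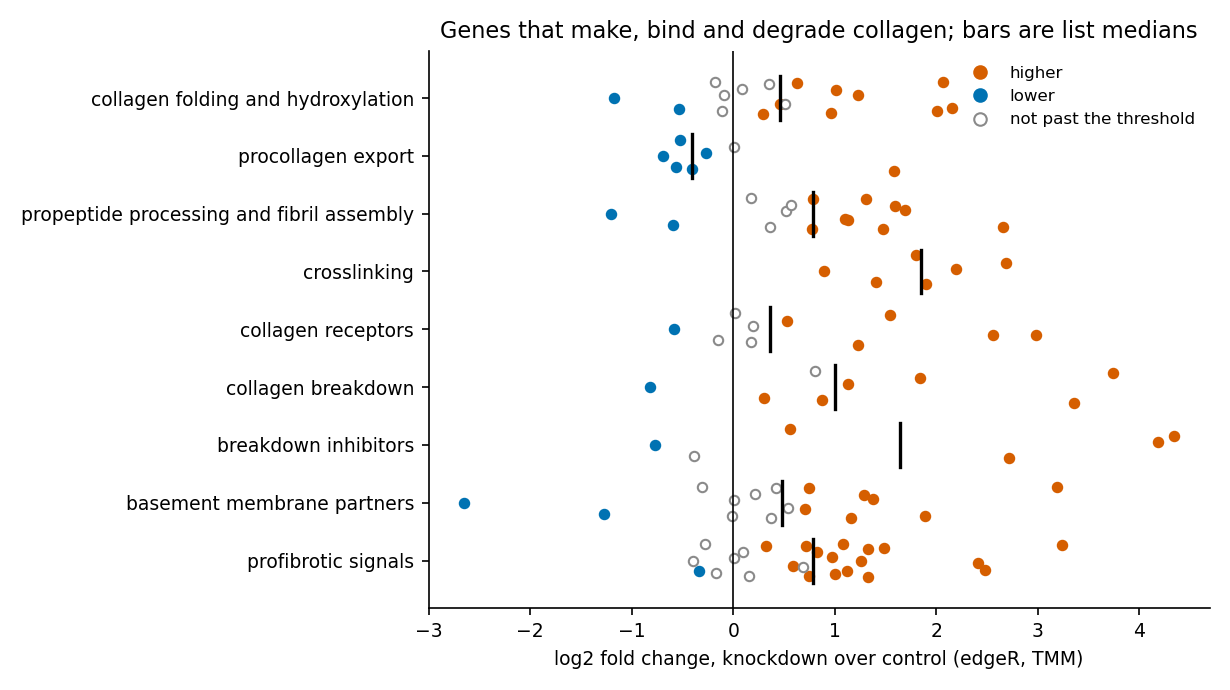
Log2 fold change of knockdown over control (x axis, edgeR with TMM scaling) for the 109 tested genes of the 9 lists of genes that make, bind and degrade collagen, 1 point a gene, spread vertically within a list for legibility, with bars for the list medians. The medians run from -0.41 (procollagen export) to 1.85 (crosslinking).

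Markers of the cells that could carry these transcripts were counted alongside, and summed levels cover every gene of a list, tested or not. The shares to set beside these counts are those over all genes tested, of which 29.5% rose and 27.8% fell. With scaling by total counts they were 63.9% higher and 7.73% lower. Of 10 tested markers of myofibroblasts and portal fibroblasts 9 rose and none fell, with a summed level of 36.3 to 60.5 CPM in control and 107 to 150 CPM in knockdown samples. Acta2, smooth muscle actin, rose by 2.44 and Thy1, a marker of portal fibroblasts, by 1.69. Of 13 tested stellate cell markers 6 rose and 2 fell (10 higher and 1 lower with scaling by total counts). Their summed level, with TMM scaling, overlapped between groups (208 to 306 and 200 to 288 CPM).

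Of 13 tested macrophage markers 12 rose (649 to 859 CPM summed in control, 1679 to 1953 CPM in knockdown), of 11 T and NK cell markers 9 rose and 1 fell (16.1 to 30.2 and 45.3 to 64.1 CPM), and of 7 cholangiocyte markers 4 rose and 1 fell (64.8 to 83.3 and 99.7 to 133 CPM). Of 11 endothelial markers 1 rose and 3 fell (3 higher and none lower with scaling by total counts), with overlapping sums of 406 to 458 and 224 to 449 CPM. Of 2 tested mesothelial markers 1 rose, and the sums over all 6 on that list were 0.456 to 4.89 and 1.39 to 3.63 CPM. No marker of any list was at 0 in all samples. The part of these cell types in the rises of the collagens was not tested.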

How the data were processed

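For the 8 liver samples the authors deposited unnormalised estimated counts, 1 value per gene and sample. Of these 10.9% are not whole and were rounded. Per the labels, RNA was depleted of ribosomal RNA, and the submitters' processing notes list Bowtie2 2.2.9, fastp 0.19.5, SAMtools 1.9 and GATK 3.8, with mm10. The strandedness, the counter and the aligner's settings were not given in the sources used. The authors also deposited a comparison table, whose fold change (a ratio), log2 fold change and p-value columns are theirs, per the file headers.

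Of 56181 entries, 645 assembled loci (0.676 to 1.08% of counts) were left out. The knockdown samples were tested against the controls by edgeR 4.0.16 under R 4.3.3 (filterByExpr, TMM factors of 0.776 to 1.26, glmQLFit and glmQLFTest), with Benjamini-Hochberg adjustment over 15375 genes. The procedure was tested on simulated data in which few genes changed, as many up as down. That setting does not test TMM scaling under changes as wide as those seen here. CPM are counts scaled to a common total after TMM, and RPKM are CPM per kilobase of the deposited gene length. Ratios between chains were tested by exact permutation of samples (70 arrangements) on the log2 ratio of the counts of the chains in a sample, with nothing added to the counts. Positions are from GENCODE mouse release 21, and promoters from RefSeq. Exon bases are shared with another annotated gene in 13 members, 6.07% at most (Col9a3), and reads of these cannot be told apart without strand.

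Replicates of a group differed by more than counting error (lowest chi-square per degree of freedom 8.94). All members are accounted for. Values per sample are given for those at 1 CPM or more or past the threshold, and of each other list up to 3 higher and 3 lower genes with the smallest p-values are named, with P4hb, Ppib, Itgb1, Acta2, Thy1, Msln, Pi16, Alb and Cps1 as exceptions chosen after their values were seen. A gene that this rule names is not reported here. The members, classes and lists were chosen with earlier results of these data known. Alternatives were DESeq2 1.42.0, limma-voom (limma 3.58.1), RLE, upper-quartile and total-count scaling, other filters, the replicate number or the sample code's letter as covariates, the samples coded C alone and leaving out each sample.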

Additional observations from a re-analysis of the deposited data

Results flagged for a closer look

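In 4 of the 52 groups of 4 samples examined, 1 sample stood apart from the others by more than Dixon's 95% limit, and chance flags about 1 in 20 groups. Col27a1 stood at 57.2 CPM in control replicate 4, where the other controls held 29.9 to 32.1 CPM. Col6a1 stood at 12.2 CPM in control replicate 3, where the other controls held 7.75 to 8.40 CPM. Col6a3 stood at 8.59 CPM in control replicate 3, against 6.40 to 6.71 CPM in the other controls, and at 63.7 CPM in knockdown replicate 1, against 31.1 to 36.2 CPM in the other knockdown samples. The calls of these 3 genes were the same without any of these samples.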

How the results depend on the processing

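Over the alternatives 14 to 18 collagens were higher, 14 to 15 when each sample was left out in turn and 18 with total-count scaling. The number lower was 5, and it was 3 with upper-quartile and with total-count scaling, 3 to 5 when each sample was left out and 6 without a filter. Of the pathway genes 63 were higher and 15 lower, and with total-count scaling 89 were higher and 4 lower. Over all genes tested, total-count scaling called 63.9% higher and 7.73% lower. Col15a1 turned from -0.19 to 0.38 with total-count scaling, as total-count scaling moves all genes up, and Col4a3 from 0.30 to -0.028 without knockdown replicate 3 (-0.028 to 0.54 as each sample was left out), both without passing the threshold. With a replicate block 15 collagens were higher and 4 lower, Col20a1 being lost, and 62 and 15 pathway genes. Same-numbered samples did not deviate together (correlations of -0.13, -0.04, 0.06 and 0.15), and differently numbered samples gave -0.27 to 0.17. A pairing with little effect on RNA would not show in such correlations, and the labels do not say whether the numbers pair the samples. With annotated exon lengths the share of Col18a1 was 80.8% in control and 39.0% in knockdown samples and the fibrillar share 7.03% and 30.5%, an alternative chosen after seeing the data. The same lengths move the level of several ratios between chains, Col1a1 over Col1a2 to 1.14 and 2.08, without changing their log2 differences between groups. Col8a2 was below the filter, so its planned ratio to Col8a1 was not tested. The 18 members below the filter had at most 68 counts in all, and without a filter Col25a1 and Col9a2 among them were lower.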
